A study of Mus musculus with 8 samples.

Results

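The 83 cytosolic ribosomal protein genes described here were taken from the 55487 gene identifiers of the deposited tables by their symbols. The rule keeps symbols made of Rpl or Rps and a number (with a, l or x after it where present), Rplp0 to Rplp2 and Rpsa, and leaves out the 294 genes named as ribosomal protein pseudogenes. It finds 51 genes of the large subunit (Rpl and Rplp symbols) and 32 of the small subunit (Rps symbols and Rpsa), spread over 19 chromosomes. The GENCODE M21 annotation lists 80 of them as protein-coding, Rpl6l and Rpl32l as processed pseudogenes and Rps4l as a transcribed processed pseudogene. RNA sequencing was done on the dorsomedial hypothalamus (DMH) of mice, a brain region involved in feeding and daily rhythms, in 4 libraries marked fLuc knockdown (group shfLuc, a hairpin against firefly luciferase) and 4 with a hairpin against Ppp1r17 (group shPpp1r17), a gene for an inhibitor of protein phosphatases. The LMD in the sample titles is taken here as laser microdissection. Both groups carry a short hairpin RNA, so no library is from untreated tissue. Not given in the sources used here are the strain, sex and age of the mice, the way the hairpins were delivered, the promoter driving them and the time after delivery. Whether each library represents its own animal is also unstated in the labels, and the p-values below therefore reflect how far these libraries vary, a spread that may be technical.

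Each ribosome joins a large subunit, which forms peptide bonds, to a small subunit, which reads the mRNA, and nearly every ribosomal protein is present in a single copy per particle. Cells therefore make these proteins in matched amounts. Many mRNAs of ribosomal proteins and translation factors begin with a C followed by a run of pyrimidines, the 5′ terminal oligopyrimidine (TOP) motif, through which mTORC1 and the RNA-binding protein LARP1 control their translation. In neurons, ribosomal protein mRNAs are also found in axons and dendrites.

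The start sites of 8 members are shown because they are the best-known shared control element of this gene family and because they include members with large and with small fold changes below. Each line gives 15 bases before and 15 bases from the annotated RefSeq start (GRCm38.p6), 5′ to 3′ on the gene's own strand. Capitals mark the unbroken run of C and T that begins at the first transcribed base.
Rps18: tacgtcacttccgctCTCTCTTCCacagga
Rps27: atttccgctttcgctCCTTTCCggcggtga
Rplp2: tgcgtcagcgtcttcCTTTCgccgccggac
Rpl28: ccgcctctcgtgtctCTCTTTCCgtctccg
Rps7: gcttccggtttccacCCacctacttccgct
Rps3: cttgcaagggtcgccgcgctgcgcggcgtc
Rpsa: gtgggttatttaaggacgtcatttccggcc
Rpl12: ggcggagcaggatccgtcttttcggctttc
These windows lie at chr17:33955651-33955680 (minus strand, Rps18), chr3:90213634-90213663 (minus, Rps27), chr7:141447636-141447665 (plus, Rplp2), chr7:4792950-4792979 (plus, Rpl28), chr12:28635939-28635968 (minus, Rps7), chr7:99483695-99483724 (minus, Rps3), chr9:120127751-120127780 (plus, Rpsa) and chr2:32961697-32961726 (plus, Rpl12). Of the members, 61 had an entry in the RefSeq start table, with 73 starts. A C followed by at least 4 pyrimidines stood at 14 of these starts (19.2%), against 823 of the 32851 starts of all genes in the table (2.51%). Within 15 bases of the start such a run was present for 60.3% of member starts and 36.4% of all starts. An annotated start need not be the base where transcription begins in this tissue. In the window from 250 bases before to 50 after the start, searched on both strands, CCGGAAG was found in 35.6% of member windows and 8.86% of all windows, AAGATGGC in 9.59% and 2.75%, and TATAAA in 9.59% and 13.6%.

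Ppp1r17 itself stood at 147, 161, 161 and 171 CPM (reads scaled to a common library size, after TMM adjustment) in shfLuc 1 to 4, and at 87.7, 2.07, 3.10 and 87.2 in shPpp1r17 1 to 4. Libraries 2 and 3 of shPpp1r17 thus had far less of it than libraries 1 and 4. Those same libraries held less of the DMH genes Brs3 (7.26 and 8.47 CPM, against 29.4 to 51.1 in the other 6) and Grp (14.1 and 13.3 CPM, against 26.0 to 30.5), while Nkx2-1, a hypothalamic transcription factor, was at 5.54 to 8.97 CPM in every library. In bulk tissue, fewer cells of a type and less RNA per cell cannot be told apart. Library totals ran from 23070147 to 33907984 estimated reads.

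Ribosomal protein transcripts took a larger share of every shPpp1r17 library than of any shfLuc library. In shfLuc 1 to 4 the members together held 2.93%, 2.55%, 2.45% and 2.47% of the reads. In shPpp1r17 1 to 4 they held 3.43%, 4.37%, 4.81% and 3.48%. The means were 2.60% ± 0.226 and 4.02% ± 0.677 (SD, n = 4 each), a ratio of 1.55. The groups did not overlap, and shPpp1r17 2 and 3 were the highest. On the TPM scale, which divides by gene length, the members held 7.03% ± 0.444 of transcripts in shfLuc and 10.3% ± 1.57 in shPpp1r17.

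The subunits moved in step. Large subunit genes held 1.83%, 1.59%, 1.52% and 1.53% of the shfLuc 1 to 4 reads and 2.13%, 2.71%, 3% and 2.18% of those of shPpp1r17 1 to 4. Small subunit genes held 1.1%, 0.96%, 0.928% and 0.944% in shfLuc and 1.31%, 1.66%, 1.81% and 1.3% in shPpp1r17. Each subunit's mean share was 1.55 times the shfLuc mean in shPpp1r17. The large subunit's part of all member reads was 61.8% to 62.4% across the shfLuc libraries and 61.9% to 62.7% across the shPpp1r17 libraries. That part averaged 62.2% in both groups (SD 0.292 and 0.349), so the difference between groups, 0.0682 percentage points, was smaller than the spread within either. By TPM the ratio of large to small subunit transcripts was 1.39 ± 0.0255 in shfLuc and 1.40 ± 0.0258 in shPpp1r17.

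**Figure D1:**
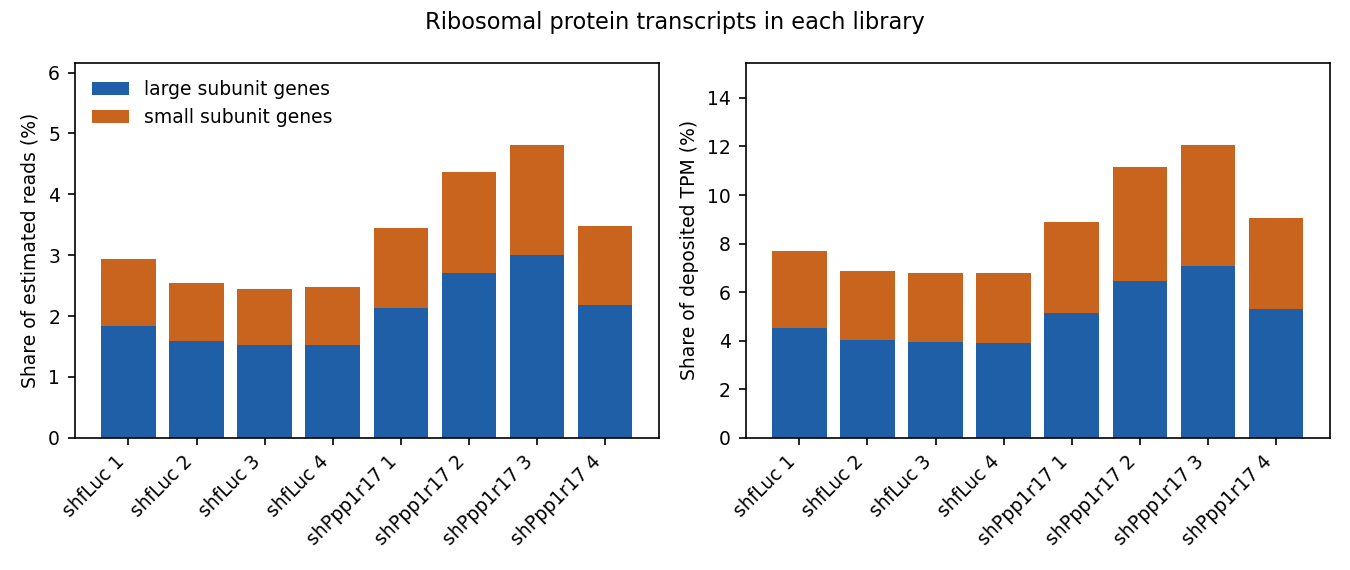
Share of each library taken by large (blue) and small (orange) subunit genes, as a percentage of estimated reads (left) and of deposited TPM (right), with 1 stacked bar per library. All shPpp1r17 bars (3.43% to 4.81% of reads) stand above all shfLuc bars (2.45% to 2.93%), and the split between subunits is nearly the same in each bar.

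Gene by gene, 79 members had enough reads to be tested (47 large, 32 small), and all 79 had a positive log2 fold change of shPpp1r17 over shfLuc. Of these, 70 rose (43 large, 27 small; edgeR quasi-likelihood test, adjusted p under 0.05 over 17339 genes), and 0 fell. Among all tested genes 3.39% rose and 2.66% fell (588 and 462 genes). On log2(TPM + 1) with limma, 62 members rose and 0 fell, while 309 of all genes rose and 488 fell. All 4 shPpp1r17 libraries lay above all 4 shfLuc libraries for 65 members (40 large, 25 small), a pattern shown by 7.12% of all tested genes. The median log2 fold change was 0.62 for the large subunit (interquartile range 0.54 to 0.71) and 0.58 for the small subunit (0.50 to 0.67), against 0.00 (-0.18 to 0.20) for all tested genes. The 2 medians differed by 0.04, a difference given as a description. This number depended on individual libraries. With edgeR, 0 members passed without shfLuc 2 and 0 without shfLuc 3; there 76 and 75 had an unadjusted p under 0.05 and the smallest adjusted p was 0.0505 and 0.0549. In those same fits limma voom also called 0 and 0 members. DESeq2 called 70 and 69 members, of 1211 and 1160 genes called in all. The loss covered the whole table: over all genes edgeR also called 0 in both fits (3309 and 3146 at an unadjusted p under 0.05), against 1050 with every library kept. The members called were 40 without shfLuc 4, 47 without shPpp1r17 2 and 41 without shPpp1r17 3, where 287, 310 and 196 genes were called in all.

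**Figure D2:**
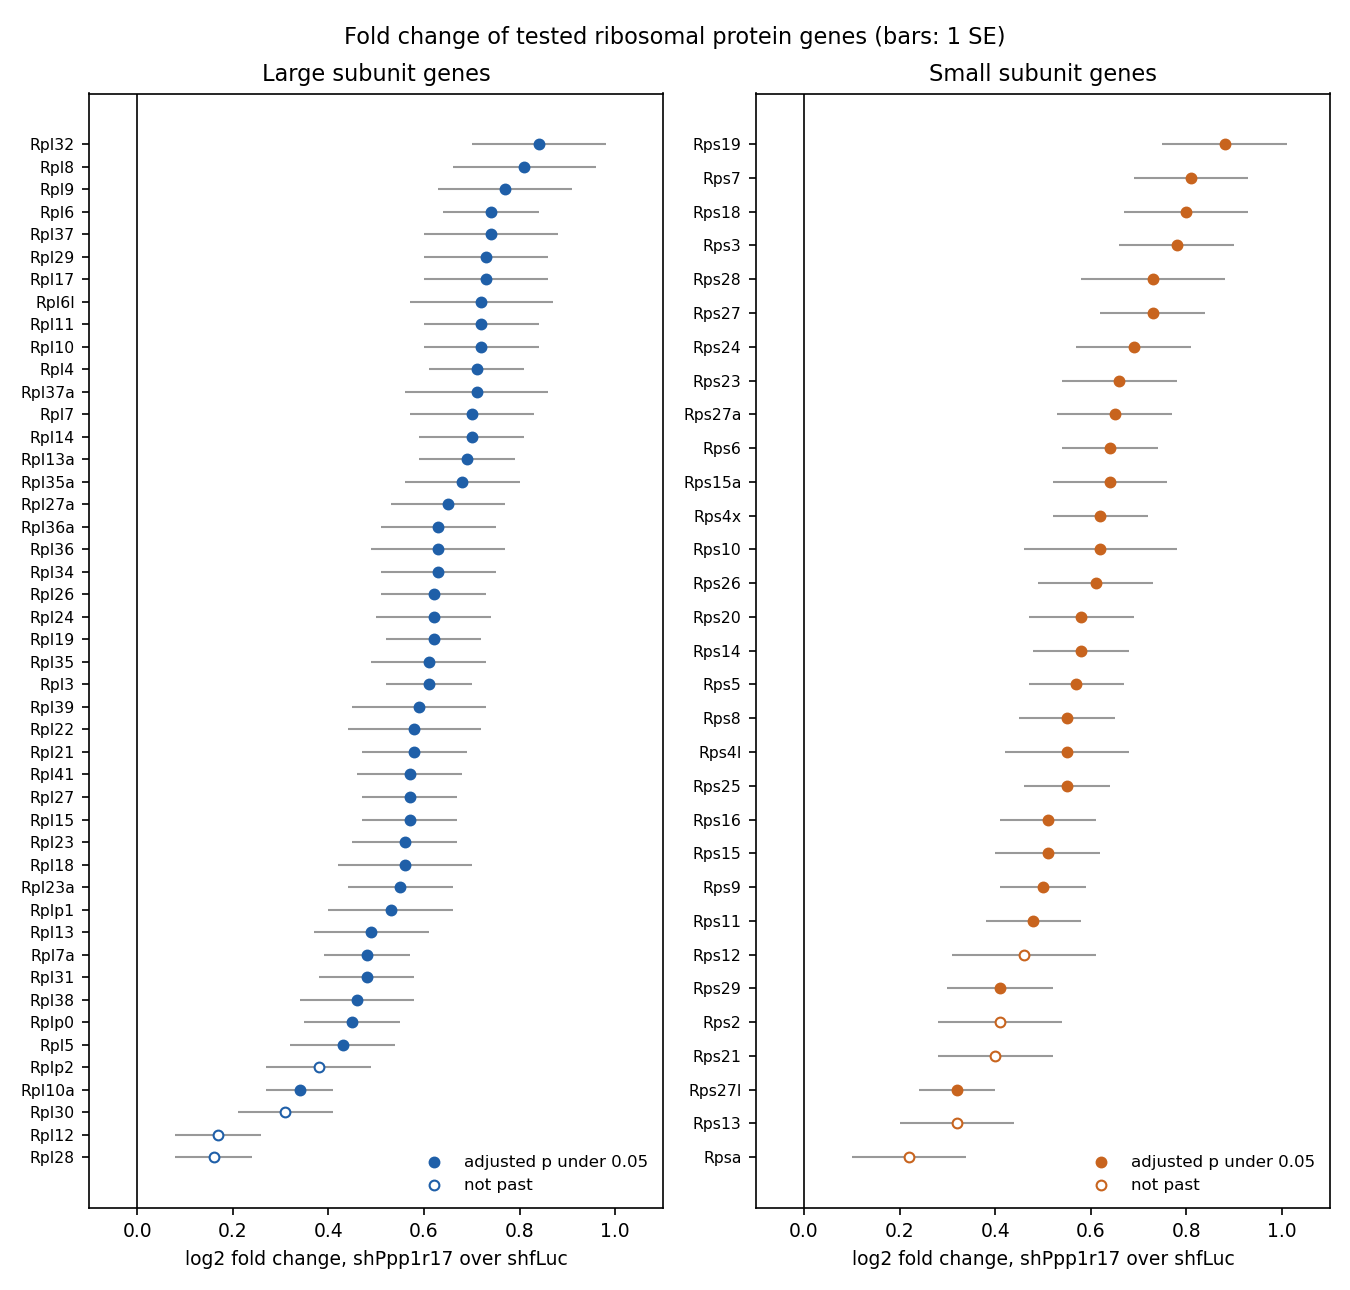
Log2 fold change of shPpp1r17 over shfLuc for tested ribosomal protein genes, with bars of 1 standard error; filled points passed an adjusted p of 0.05. Every point lies to the right of 0, from 0.16 for Rpl28 to 0.88 for Rps19.

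The 7 members with the highest TPM in shfLuc (Rpl41, Rps14, Rps19, Rpl3, Rpl13a, Rps27 and Rps29, in that order) had log2 fold changes from 0.41 (Rps29) to 0.88 (Rps19), all past the threshold. Rpl41, whose product is the smallest ribosomal protein, stood at 3296, 3104, 2894 and 2900.3 TPM in shfLuc 1 to 4 and at 3815, 4682, 4956 and 3638 TPM in shPpp1r17 1 to 4. Its log2 fold change was 0.57 (SE 0.11, adjusted p = 0.0161). Rps14, a protein of the small subunit's platform, went from 2810.1 ± 44.7 TPM to 3971 ± 598 TPM (SD, n = 4; log2 fold change 0.58, adjusted p = 0.0119). Rpl3, at the peptidyl transferase centre, went from 2537 ± 71.3 TPM to 3651 ± 509.7 TPM (0.61, adjusted p = 0.00997). For each of these 3 genes the lowest shPpp1r17 library was above the highest shfLuc library. Mean TPM in shfLuc ran from 40.2 for Rpl6l to 3049 for Rpl41, with a median of 653. Across the 79 members the Spearman correlation of fold change with shfLuc TPM was 0.30, and those with gene length and GC content were 0.02 and 0.03; members share libraries and are not independent.

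The largest difference belonged to Rps19, a small subunit protein needed for 18S rRNA maturation and the gene most often mutated in Diamond-Blackfan anaemia. It stood at 965, 934, 948 and 957 CPM in shfLuc 1 to 4 and at 1494, 2049.6, 2159 and 1316 CPM in shPpp1r17 1 to 4. The shfLuc libraries were within a few percent of each other and every shPpp1r17 library was well above them, with a log2 fold change of 0.88 (SE 0.13, adjusted p = 0.00997). Rps7, another factor in 18S maturation, stood at 405, 345, 320.4 and 358 CPM in shfLuc and at 524, 689.9, 758 and 528 CPM in shPpp1r17 (0.81, SE 0.12, adjusted p = 0.00997). Rps18, a protein of the small subunit's head, stood at 408, 366, 359 and 357 CPM and at 534, 759, 793 and 515 CPM (0.80, SE 0.13, adjusted p = 0.0102). Rps3, at the mRNA entry site, stood at 744, 714, 700.1 and 747 CPM and at 1012, 1399, 1525 and 1037 CPM (0.78, SE 0.12, adjusted p = 0.00997). The groups did not overlap for any of these 4 genes, and shPpp1r17 3 was the highest library each time. Rps27 and Rps28 followed at 0.73 each.

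In the large subunit the order was led by Rpl32, at 576, 473, 436 and 435 CPM in shfLuc 1 to 4 and 692, 939, 1080 and 716 CPM in shPpp1r17 1 to 4 (log2 fold change 0.84, SE 0.14, adjusted p = 0.0107). Rpl8, at the heart of the subunit near the peptidyl transferase centre, stood at 552, 434, 388 and 388 CPM and at 584, 820.3, 984 and 699 CPM (0.81, SE 0.15, adjusted p = 0.0124). Here shfLuc 1 came close to shPpp1r17 1, though the groups did not overlap. Rpl9 (0.77), Rpl6 (0.74), Rpl37 (0.74) and Rpl29 (0.73) came next. Rpl6 had the smallest adjusted p of any member, 0.00942, with 626, 565, 529 and 592 CPM in shfLuc and 807, 1033, 1139.8 and 886 CPM in shPpp1r17.

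Members with known places in the ribosome were compared as groups. At the rim of the peptide exit tunnel, where the nascent chain leaves, 8 of 8 genes rose, with a median log2 fold change of 0.60, from Rpl31 (0.48) to Rpl17 (0.73). Rpl22, the least abundant of them by TPM, rose by 0.58 (SE 0.14, adjusted p = 0.0326) from 63.3, 53.1, 42.0 and 47.3 CPM to 60.8, 85.2, 91.5 and 69.6 CPM, with shPpp1r17 1 below shfLuc 1. Rpl35 rose by 0.61 (adjusted p = 0.0141) and differed from most members in its controls: shfLuc 1 was the lowest there, with 379, 396, 430.4 and 465 CPM in shfLuc 1 to 4 against 580, 732, 741 and 499 CPM in shPpp1r17 1 to 4. Among 7 genes of mRNA entry, exit and decoding 6 rose, with a median of 0.61. Rps23, at the decoding centre, had a log2 fold change of 0.66, Rps26, at the mRNA exit, 0.61, Rps15 0.51 and Rps9 0.50. The exception was Rps2 (0.41, SE 0.13, adjusted p = 0.0902). Its levels were 82.2, 77.8, 66.1 and 80.6 CPM in shfLuc and 89.7, 96.6, 137 and 85.0 CPM in shPpp1r17. The Rps2 groups did not overlap, but shPpp1r17 3 was far above the other libraries.

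The 5S ribonucleoprotein, which sits in the central protuberance and whose free form binds the p53 regulator Mdm2, is built from Rpl5 and Rpl11. Both rose. Rpl11 stood at 249.8, 187, 177 and 194 CPM in shfLuc and at 276, 340.5, 399.8 and 311 CPM in shPpp1r17 (log2 fold change 0.72, SE 0.12, adjusted p = 0.0114). Rpl5 stood at 97.1, 80.2, 87.4 and 87.9 CPM and at 109, 124, 143 and 100.5 CPM (0.43, SE 0.11, adjusted p = 0.0324). The point estimate for Rpl5 was lower, and the difference between the 2 genes was not tested.

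The P-stalk, the flexible arm that recruits elongation factors, had a median log2 fold change of 0.41 over 4 genes, Rpl12 included. Of these 2 passed the threshold. The median of all members was 0.61, and the difference between them was not tested. Rplp0, the stalk's base protein, rose by 0.45 (SE 0.10, adjusted p = 0.0231), from 392, 342, 339 and 317 CPM to 406, 505, 552 and 431 CPM. Rplp1 rose by 0.53 (SE 0.13, adjusted p = 0.0291), from 445, 356, 328 and 333 CPM to 453, 552, 649 and 451 CPM. For both genes shfLuc 1 lay just under the lowest shPpp1r17 library. Rplp2, the partner of Rplp1, did not pass (0.38, SE 0.11, adjusted p = 0.0662), with 298, 256, 223 and 226 CPM in shfLuc and 302, 339, 387 and 277 CPM in shPpp1r17. Rpl12, beside the stalk base, was nearly level at 61.1, 54.7, 55.1 and 63.0 CPM in shfLuc and 67.7, 57.8, 71.1 and 66.8 CPM in shPpp1r17 (0.17, SE 0.09, adjusted p = 0.260). Its groups overlapped, and shPpp1r17 2, which was among the 2 highest libraries for most members, was the lowest of its group.

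All 18 genes of the list linked to Diamond-Blackfan anaemia, a failure of red cell production caused by low dosage of a ribosomal protein, passed the threshold. Their median log2 fold change was 0.62, from Rps29 (0.41) to Rps19 (0.88), close to the median of all members. Rps29 stood at 401, 325, 327 and 337 CPM in shfLuc 1 to 4 and at 442, 508, 529 and 374 CPM in shPpp1r17 1 to 4 (SE 0.11, adjusted p = 0.0383). Its groups overlapped, since shfLuc 1 was above shPpp1r17 4. Rps10, Rps24, Rpl15, Rpl18, Rpl26, Rpl27 and Rpl35a had log2 fold changes between 0.56 (Rpl18) and 0.69 (Rps24).

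The 9 members that did not pass were Rpl28, Rpl12, Rpl30 and Rplp2 of the large subunit and Rpsa, Rps13, Rps21, Rps2 and Rps12 of the small subunit. Rpl28 had the lowest estimate, 0.16 (SE 0.08, adjusted p = 0.278; 0.22 with pseudogene reads added), with 91.9, 83.7, 79.7 and 93.6 CPM in shfLuc and 103, 90.8, 106 and 90.0 CPM in shPpp1r17. Rpsa, the laminin receptor precursor that sits at the mRNA exit, stood at 344, 261, 228 and 227 CPM in shfLuc and at 283, 293, 332 and 322 CPM in shPpp1r17 (0.22, SE 0.12, adjusted p = 0.313). Rpsa was the single member with its highest value in a shfLuc library. Rpl30 (166, 125, 119.8 and 122 CPM against 152, 163, 179 and 166 CPM; 0.31, SE 0.10, adjusted p = 0.1) and Rps13 (174, 131, 121 and 123 CPM against 157, 160.2, 203 and 167 CPM; 0.32, SE 0.12, adjusted p = 0.125) had the same shape, with a high shfLuc 1 inside the shPpp1r17 range. For Rps12 (0.46, SE 0.15, adjusted p = 0.0971) shfLuc 1 stood at 89.2 CPM and the other 3 controls at 54.5 to 61.6 CPM, against 75.4 to 112 CPM in shPpp1r17. Rps21 (0.40, SE 0.12, adjusted p = 0.0601) had 197 CPM in shfLuc 1, 138 to 153 CPM in the other controls and 183 to 238 CPM in shPpp1r17. The start sites printed above were chosen with their fold changes known, so how starts sort by response cannot be read from them. Rps18 (0.80) and Rpl28 (0.16) both begin with a C and a long pyrimidine run, and Rps3 (0.78) and Rpl12 (0.17) do not. Over all members in the start table, the 13 tested genes with such a start had a median of 0.62 (10 rose) and the 44 without it 0.60 (39 rose). A relation between annotated start and fold change was not tested.

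Paralogues and copies outside the canonical set were mostly low or moved with the family. Rpl3l, the striated muscle form of Rpl3, had 0 reads in every shfLuc library and 4, 3, 5 and 0 reads in shPpp1r17 1 to 4. Rpl10l, the testis form of Rpl10, had 0 reads in all 8 libraries, Rpl39l had at most 18 and Rpl32l at most 6. These 4 members were too low to test. Rps27l, the paralogue of Rps27 induced by p53, was measured at 37.0, 35, 35.2 and 38.3 CPM in shfLuc and 44.4, 47.6, 48.5 and 41.3 CPM in shPpp1r17 (log2 fold change 0.32, SE 0.08, adjusted p = 0.0351). Rps27 itself had 329, 275, 286 and 302 CPM and 443, 547, 592 and 399.8 CPM (0.73, SE 0.11, adjusted p = 0.00997), and both pairs of groups were apart. Rps4l (0.55) and Rpl6l (0.72) are near copies of Rps4x (0.62) and Rpl6 (0.74), so reads could have been split between them and these values are uncertain. Of the wider list of 9 paralogues, 6 were tested and 5 rose, with a median of 0.49.

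Processed pseudogenes are near-identical to many members, and the counting could have divided reads between them. The named pseudogenes held reads equal to 8.16% to 9.48% of the member reads in shfLuc and 8.63% to 9.86% in shPpp1r17. Of 69 pseudogenes tested, 18 were called higher, with a median log2 fold change of 0.63. These reads came to 138% of the member's own for Rpl10, 85.8% for Rpl17, 76.3% for Rps6, the S6 kinase substrate, 71.5% for Rpl28 and 63.6% for Rps23, so their values are uncertain. Adding the reads of the named pseudogenes moved Rpl10 from 0.72 to 0.79, Rpl17 from 0.73 to 0.77 and Rps6 from 0.64 to 0.75. Rpl28 moved from 0.16 to 0.22 and no longer had the lowest value, which was then that of Rpl12 (0.17), and Rps23 moved from 0.66 to 0.67. With the reads of the named pseudogenes added to their parent genes 70 members rose, the same number as without them. Reads of Rpl6l, Rpl32l, Rps4l and any copies under other names were not added.

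**Figure D3:**
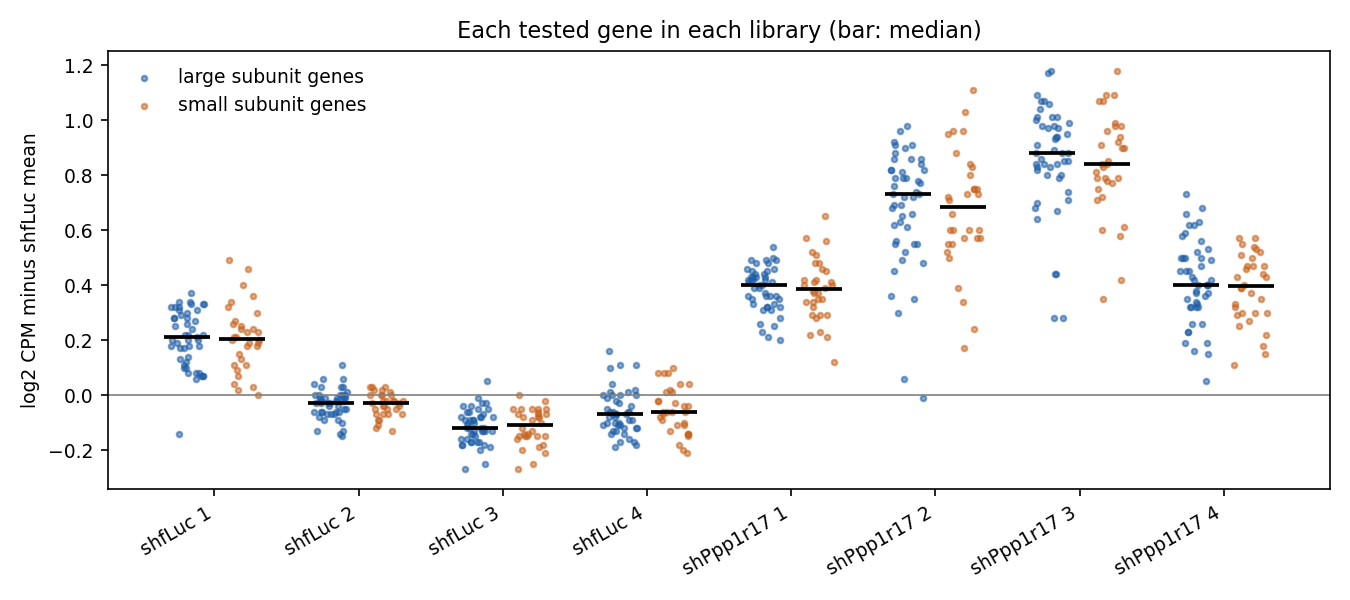
Log2 CPM of each tested ribosomal protein gene minus its shfLuc mean, for each library, with large subunit genes in blue, small subunit genes in orange and the median as a bar. The medians of the 2 subunits lie together in every library, near 0.40 in shPpp1r17 1 and 4, near 0.7 in shPpp1r17 2 and between 0.8 and 0.9 in shPpp1r17 3.

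The members kept nearly the same order of libraries. The highest of the 8 values was in shPpp1r17 3 for 77 of 79 genes, and shPpp1r17 2 and 3 were the 2 highest for 72. Relative to the shfLuc mean in log2 CPM, the large subunit median was 0.21, -0.03, -0.12 and -0.07 for shfLuc 1 to 4 and 0.40, 0.73, 0.88 and 0.40 for shPpp1r17 1 to 4. The small subunit median was 0.20, -0.03, -0.11 and -0.06 in shfLuc and 0.38, 0.68, 0.84 and 0.39 in shPpp1r17. Over all tested genes it stayed between 0.00 and 0.02. The first control library stood apart in the same direction as the shPpp1r17 libraries: shfLuc 1 was the highest control for 71 of 79 members. Above the highest control lay 70, 74, 78 and 70 of the 79 members in shPpp1r17 1 to 4. The spread within groups was wider in shPpp1r17, with a median coefficient of variation of 16.7% against 10.4% in shfLuc. Without shPpp1r17 2 and 3, an alternative chosen with the library pattern known, all 79 members kept a positive estimate, with medians of 0.40 (large) and 0.39 (small), and 9 passed (0.144% of all genes passed as higher). Among these were Rpl3, Rpl4, Rpl6, Rpl13a, Rps3, Rps7, Rps18 and Rps19. In that fit DESeq2 called 56 members and limma voom 13, of 400 and 56 genes called in all.

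Summed markers of some other cell types were also higher in several shPpp1r17 libraries, though not in the same order of libraries for each type. The summed level of 14 microglia and macrophage markers was 668, 498, 537 and 439 CPM in shfLuc 1 to 4. It was 814, 1237, 1112 and 668 CPM in shPpp1r17 1 to 4. Of the 14 markers 8 rose, among them Lyz2 (log2 fold change 2.42) and C1qa (0.97). The 5 blood cell markers (haemoglobins and Alas2) summed to 567, 389, 463 and 328 CPM in shfLuc 1 to 4. They summed to 792, 1231, 783 and 638 CPM in shPpp1r17 1 to 4, and 5 of 5 rose. The 8 plasma and B cell markers summed to 34.6 to 74.5 CPM in 3 shfLuc libraries, 499 CPM in shfLuc 1 and 467 to 2807 CPM in shPpp1r17; 3 of 8 rose (Ighm, Jchain and Ighg2b), and Ighg2b, Ighg2c and Mzb1 were at 0 in some shfLuc libraries. The 9 oligodendrocyte markers summed to 1273 to 1321 CPM in shfLuc and 1314 to 2319 CPM in shPpp1r17 (3 of 9 rose), and the 6 endothelial markers to 122 to 146 CPM and 129 to 211 CPM (1 of 6 rose). The astrocyte sum was 3271 to 3634 CPM in shfLuc and 3199.9 to 3614 CPM in shPpp1r17, with 2 of 8 genes higher (Gfap at 1.82) and 1 lower. The neuronal sum was 4450.3 to 4525 CPM and 4383 to 4849 CPM, with 1 of 9 higher and 3 lower. The part of these cell types in the ribosomal protein result was not tested.

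**Figure D4:**
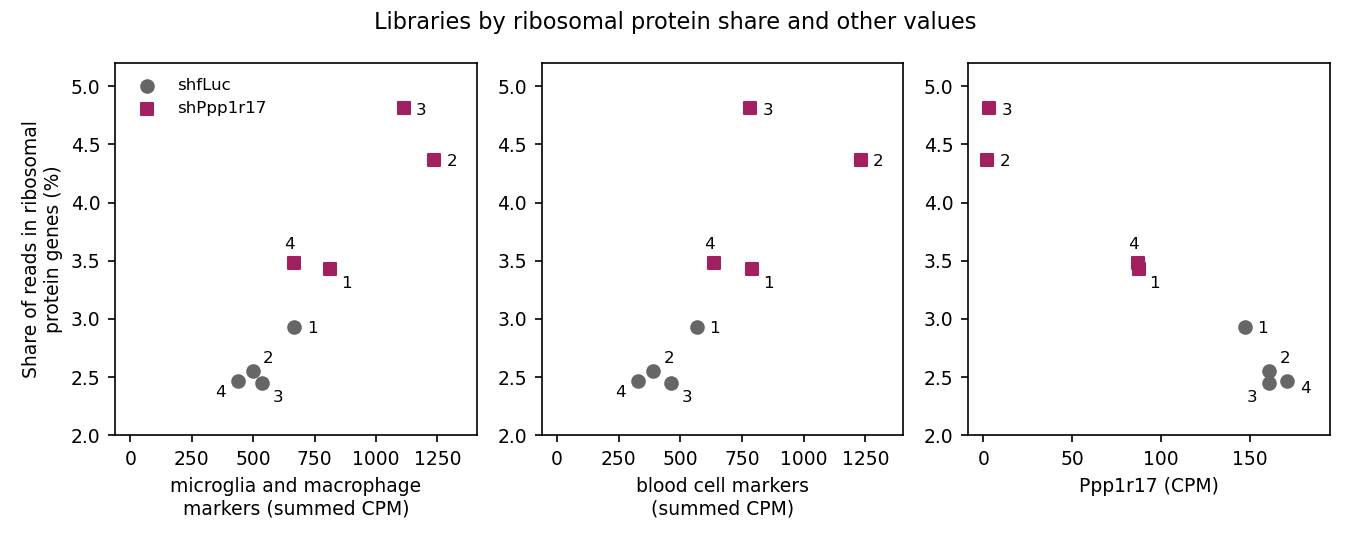
Share of reads in ribosomal protein genes (vertical axis, %) against the summed CPM of microglia and macrophage markers, the summed CPM of blood cell markers and the CPM of Ppp1r17, with 1 point per library and its number beside it (grey circles shfLuc, purple squares shPpp1r17). Libraries shPpp1r17 2 and 3 are highest in share (4.37% and 4.81%) and in microglial markers and lowest in Ppp1r17, and shfLuc 1 is the highest control in share. That library is also the highest control in microglial markers (668 CPM) and in blood cell markers (567 CPM). In blood cell markers shPpp1r17 2 is highest (1231 CPM), and shPpp1r17 1 and 3 are nearly level (792 and 783 CPM).

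Gene length also differed. The tested members had a median deposited gene length of 712 bases, against 2410 for all tested genes. Their median GC content was 51.0%, against 49.0% for all tested genes. Across all 17339 genes the Spearman correlation of fold change with length was -0.19, so shorter genes had on the whole higher fold changes. By library, the correlation of relative level with length was -0.13, -0.03, 0.1 and 0.06 in shfLuc 1 to 4. It was -0.19, -0.1, -0.18 and -0.2 in shPpp1r17 1 to 4. With each library's trend with length and GC content removed, 53 members rose (31 large, 22 small; 2.4% of all genes were called higher) and the medians were 0.41 (large) and 0.40 (small). Rps19 stood at 0.65 and Rpl4 at 0.63 in that fit, Rpl12 at -0.00 and Rpl28 at -0.08. In the same fit 4 of 8 exit tunnel genes passed and 5 of 7 genes of mRNA entry, exit and decoding. So did 1 of the 2 genes of the 5S ribonucleoprotein and 13 of the 18 Diamond-Blackfan genes. Of the 4 P-stalk genes 0 passed, with 2 higher at an unadjusted p under 0.05, as were 1704 of all 17339 genes. This adjustment takes the trend from all genes, the members included, and whether length itself contributed was not tested further.

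Other genes of the translation machinery were set beside the members. Ribosomal proteins that the symbol rule does not reach followed them: 7 of 8 rose, with a median log2 fold change of 0.49. Rps3a1 stood at 762, 574, 551 and 542 CPM in shfLuc 1 to 4 and at 806, 1085, 1230.2 and 959 CPM in shPpp1r17 1 to 4 (0.75, adjusted p = 0.0114). Rack1, a scaffold on the small subunit, had 0.40 and Fau, a ubiquitin-like protein fused to eS30, 0.37, and both passed. Rps27rt (0.78), Rpl36al (0.53) and Rpl22l1 (0.44) also rose. These genes and Rpl7l1 were on the list of paralogues above as well, so the lists overlap. How far reads were shared between Rps27rt and Rps27 was not examined. Rpl7l1 did not pass (0.08, adjusted p = 0.587). Of the 8, 3 passed after removal of the length and GC trend (median 0.26), and without shPpp1r17 2 and 3 only Rps27rt did (median 0.31).

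Translation factors and other genes with TOP mRNAs rose in 13 of 22 cases, with a median of 0.40. The elongation factor subunit Eef1g stood at 484, 439, 423 and 429 CPM in shfLuc and at 567, 793, 853 and 626 CPM in shPpp1r17 (0.68, SE 0.11, adjusted p = 0.0110). Npm1 (0.55), Eif4b (0.54), Eif3e (0.52), Eef1a1 (0.45) and Eef2 (0.44) rose as well, while Pabpc1 (0.34, adjusted p = 0.0726), Tpt1 (0.27, adjusted p = 0.127) and Hnrnpa1 (0.01, adjusted p = 0.942) did not pass. Of the 22, 8 passed after removal of the length and GC trend (median 0.27). Without shPpp1r17 2 and 3 the edgeR count was 0, with 12 higher at an unadjusted p under 0.05 and a median of 0.26. At that cut 1064 of 17330 genes were higher and 1168 lower in the same fit. A C with at least 4 pyrimidines after it stood at 4 of the 18 annotated starts of this list (22.2%).

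Genes that build ribosomes did not show the pattern of their protein components. Of 62 ribosome biogenesis factors 1 rose and 2 fell, and the median was -0.05. Nol6, a factor of early small subunit assembly, was lower in every shPpp1r17 library, with 41.4, 43.2, 38.2 and 37.3 CPM in shfLuc and 24.8, 16, 18.6 and 22 CPM in shPpp1r17 (-0.97, SE 0.12, adjusted p = 0.00942). Wdr75 fell too (-0.38, adjusted p = 0.0276), Imp3 rose (0.59, adjusted p = 0.0304), and Nop2 did not pass (-0.34, adjusted p = 0.0668). Among 15 genes of RNA polymerase I and its factors, which transcribe rRNA, Taf1d (0.49) and Polr1d (0.43) rose, 0 fell and the median was -0.05. With the length and GC trend removed, Imp3, Taf1d and Polr1d did not pass (adjusted p = 0.0696, 0.0715 and 0.112).

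The mTORC1, S6 kinase and LARP1 list also held Myc, Max, Mxi1, Larp4 and Rps6ka1 to Rps6ka3. Over all genes 3.39% rose and 2.66% fell. Of the 21 genes of this list 0 rose and 3 fell, with a median of -0.14. Those that fell were Tsc2 (-0.42, adjusted p = 0.0183), part of the complex that restrains mTORC1, Max (-0.39, adjusted p = 0.0401), the partner of Myc, and Eif4ebp2 (-0.37, adjusted p = 0.0366), a repressor of cap-dependent translation. Eif4ebp2 did not pass with the length and GC trend removed (adjusted p = 0.0754), and 0 of the 3 passed without shPpp1r17 2 and 3 (adjusted p = 0.309 for Eif4ebp2, 0.288 for Max and 0.198 for Tsc2). Eif4ebp1, the paralogue of Eif4ebp2, had the highest value of the list (0.66, SE 0.34, adjusted p = 0.265), at 1.11 to 2.33 CPM in shfLuc and 1.44 to 3.87 CPM in shPpp1r17. Mtor stood at -0.01 (adjusted p = 0.958), Rps6kb1 at -0.16 (adjusted p = 0.322), Larp1 at 0.08 (adjusted p = 0.539) and Rheb at -0.34 (adjusted p = 0.105). These are transcript levels, and the activity of the pathway was not measured. The mitochondrial ribosomal proteins, which serve the separate ribosomes of mitochondria, had a median of 0.03. Of their 78 genes 0 rose and 0 fell in the edgeR test, with 9 higher and 2 lower at an unadjusted p under 0.05. Over all 17339 tested genes, 2004 were higher and 1909 lower at that cut. DESeq2 called 3 of the mitochondrial genes higher and limma voom 0. Their median turned to -0.09 after removal of the length and GC trend. The ones with the smallest p were Mrpl32 (0.25, adjusted p = 0.0512), Mrpl30 (0.27, adjusted p = 0.0576), Mrpl24 (0.28, adjusted p = 0.0587) and Mrpl48 (0.18, adjusted p = 0.126).

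**Figure D5:**
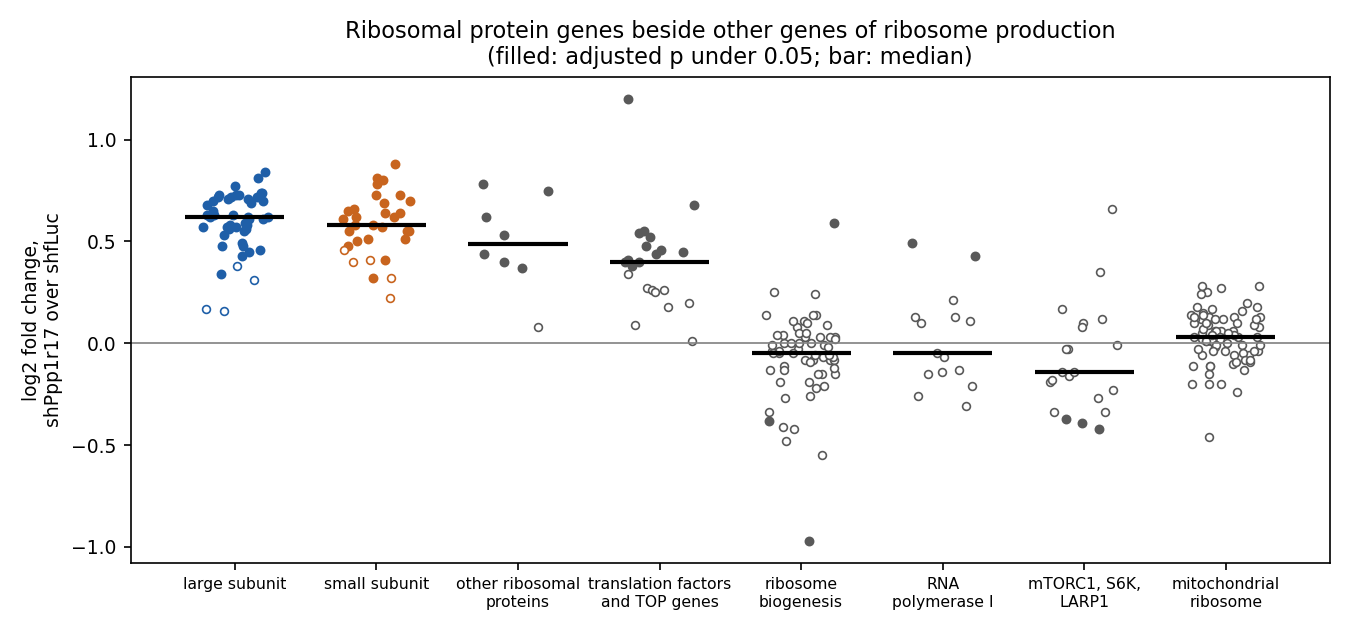
Log2 fold change of shPpp1r17 over shfLuc for the tested genes of each list, with filled points past an adjusted p of 0.05 and the median as a bar. The large and small subunit genes (medians 0.62 and 0.58) and the other ribosomal proteins (0.49) lie above 0, as do the translation factors (0.40), and the medians of the last 4 lists lie between -0.14 and 0.03.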

How the data were processed

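RNA from 8 dorsomedial hypothalamus samples was extracted with a PicoPure kit, and SMARTer libraries were prepared, per the labels' protocols. The authors' deposited tables give, per the file headers, each gene's length, effective length, TPM and estimated read count. Tools named in the submitters' processing notes are DRAGEN, bcl2fastq, limma and edgeR. Not given in the sources used here are their versions, the build and the annotation. Expected counts, as deposited by the authors, were rounded to whole numbers. The TPM values deposited by the authors, already corrected for length, served for levels and in an alternative. Symbols came from a reference list of gene names, where 55141 of 55487 identifiers matched. Biotypes, positions and GC content came from GENCODE M21. Gene lengths were those deposited by the authors, averaged over the libraries.

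Groups came from the sample titles. The test was edgeR's quasi-likelihood test (4.0.16, R 4.3.3) with TMM factors, filterByExpr (minimum count 10, minimum total 15), group as the single term and Benjamini-Hochberg adjustment over 17339 genes at 0.05. Each standard error is the fold change over the root of its F statistic. Shares and medians over members are descriptions with no test. The procedure was tested on simulated data. Alternatives were DESeq2 1.42.0, limma voom (3.58.1), voom with quality weights, library totals, RLE factors, TMM without the members, no filter, a mean CPM of at least 1, limma on log2(TPM + pseudocount) with 1 and 0.1, effective lengths, length and GC trends (splines, 5 degrees of freedom), a replicate block, pseudogene reads added to members, each library left out, and shPpp1r17 2 and 3 left out. Figures and summaries used Python 3.11.15, NumPy 2.4.6, pandas 2.3.3 and SciPy 1.17.1. The labels mention no molecular identifiers, so reads are not taken as independent molecules. Chi-square per degree of freedom between libraries of a group was 7.49 to 41.2, so none agreed within sampling noise.

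The members and lists were chosen with earlier results of these data known. Named members were, per subunit, the 5 with the highest mean shfLuc TPM, the 6 with the largest and the 4 with the smallest fold change, those not past the threshold, those on the structural lists and those not tested; from other lists, up to 4 genes with the smallest p. Any other gene was picked with its values known. Some genes these rules select are left unreported.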

Additional observations from a re-analysis of the deposited data

Results flagged for a closer look

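In 6 members the shfLuc 1 library stood apart from the other 3 controls, with a gap to its nearest neighbour that was at least 0.829 of the whole range of the 4 values, the critical value used. They were Rpl31 (0.95 of the range, 139 CPM in shfLuc 1), Rpl30 (0.896, 166 CPM), Rpl19 (0.881, 581 CPM), Rps29 (0.842, 401 CPM), Rpl27 (0.84, 152 CPM) and Rps18 (0.829, 408 CPM). All were high in shfLuc 1. Chance alone marks about 1 in 20 groups, and 104 groups of named members and 12 groups of summary values were examined. The members share libraries, so these 6 are not independent.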

How the results depend on the processing

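The number of members that rose was 70, of which 43 were large and 27 small subunit genes. With 1 library left out it ran from 0 to 75 (large 0 to 45, small 0 to 30), and without shPpp1r17 libraries 2 and 3 it was 9 (large 5, small 4). The count was 59 with a replicate block (large 36, small 23). Libraries with the same number did not deviate together (correlations -0.0116, 0.0354, 0.00569 and 0.116, and 2 of 4 matched their own number best), so the numbers were not treated as pairs. Scaling by RLE factors, library totals or TMM without the members gave 70 each, DESeq2 75, limma voom 70 (76 with quality weights), no filter 74, effective lengths 69, the length trend 53, and log2(TPM + 1) and log2(TPM + 0.1) 62 and 61. Genes called higher over the whole table numbered 582, 584 and 597 with those scalings, 984 with DESeq2 and 526 with limma voom. They numbered 897 with quality weights, 786 with no filter, 508 with effective lengths and 416 with the length trend. With log2(TPM + 1) and log2(TPM + 0.1) they numbered 309 and 306, and with the replicate block 424. The large minus small difference of 0.04 in median log2 fold change was 0.01 with the length trend removed, 0.01 with length and GC removed, 0.01 without shPpp1r17 2 and 3, and 0.02 to 0.05 with 1 library left out. Of 52 named members tested, 50 kept a positive fold change in all 24 settings. The others were Rpl28, at -0.05 with the length trend removed and -0.08 with length and GC removed, and Rpl12, at -0.00 with length and GC removed. Among the marker genes, Pecam1 (-0.04), Slco1a4 (-0.03) and Flt1 (-0.22) turned negative without shPpp1r17 2 and 3. The causes were not tested. With 4 libraries a group, small differences between members cannot be resolved.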
